A study of Mus musculus with 6 samples.

Results

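The 10 genes described here, Fos, Fosb, Jun, Junb, Atf3, Egr1, Ier2, Ier3, Btg2 and Zfp36, are immediate early and feedback genes of the hepatocyte stress and growth factor response. They were taken by symbol from the 22180 genes that a probe set with exactly 1 symbol represents on the array, and each of the 10 has 1 such probe set. Hepatocytes isolated from adult male wild-type C57Bl/6 mice were kept in William's medium without serum and received either GW4064 at 2 µM, which activates the nuclear bile acid receptor FXR, or the solvent DMSO, for 4 h (3 arrays with GW4064 and 3 with DMSO). The series names 3 independent hepatocyte preparations, and the titles number the arrays of each group 1 to 3. Every sample was cultured, so fresh liver, cells without solvent and other times after GW4064 were not analysed here.

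Immediate early genes are transcribed from pre-existing factors within minutes of a stimulus, without new protein synthesis, and their transcripts are short-lived. Growth factor and stress kinases reach them through serum response factor, the ternary complex factors and CREB. Their products include the FOS and JUN subunits of the AP-1 dimer, the zinc finger factor EGR1 and proteins that end the response by shortening mRNA. In liver they are known for their induction after partial hepatectomy and during the isolation of hepatocytes.

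Values are log2 intensities after RMA normalization, so a difference of 1 is a 2-fold difference, and they ran from 0.94 to 13.07 over the 6 arrays, whose medians differed by at most 0.0527. The number of arrays limits the precision throughout. As a check of the treatment, FXR target genes were read first. Nr0b2, the FXR-induced repressor SHP, lay at 6.68, 7.11 and 6.87 with GW4064, against 4.58, 4.49 and 4.46 with DMSO (limma adjusted p = 1.17e-04, n = 3 each). The bile salt pump gene Abcb11 and the phospholipid transporter gene Abcb4 rose by 3.08 and 1.29 (limma adjusted p = 3.70e-05 and 0.0343), while Nr1h4, which encodes FXR itself, was at 7.05 ± 0.10 with GW4064 and 7.77 ± 0.04 with DMSO (SD, n = 3 each; limma adjusted p = 0.0535). Of the hepatocyte markers 11 were measured, with albumin (Alb) at 12.82 ± 0.02 with GW4064 and 12.85 ± 0.04 with DMSO (SD, n = 3 each), and none of the 11 passed an adjusted p of 0.05 between the groups. None of 35 measured markers of Kupffer, endothelial, stellate, cholangiocyte and blood cells passed it either.

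No immediate early gene changed with GW4064 at a limma adjusted p under 0.05 over all genes, without the replicate number as a block or with it. Btg2, Egr1 and Ier3 had lower levels with GW4064 in all 3 same-numbered pairs of arrays. Their mean log2 changes were -0.43, -0.37 and -0.39, and their single pair differences ran from -0.57 to -0.22. Zfp36 and Atf3 had higher levels in all 3 pairs, with mean changes of 0.40 and 0.14. Fos, Fosb, Jun, Junb and Ier2 averaged within 0.11 of DMSO and had mixed signs over the pairs. At this threshold 0.0496% of all genes were higher and 0.00% lower without the block, and 0.0721% were higher and 0.00902% lower with it.

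At an unadjusted p under 0.05, Zfp36 was higher and Btg2 and Egr1 were lower, 1 and 2 of the 10 genes, where 2.60% of all genes were higher and 3.06% lower by the same rule. With the block 1 was higher and 3 were lower, Ier3 being the addition, against 4.01% and 5.12% of all genes. Counted by pairs, 2 of the 10 were higher in all 3 pairs, against 12.6% of all genes, and 3 were lower in all 3, against 18.6%. In 1 gene, Zfp36, every GW4064 array lay above every DMSO array (4.58% of all genes), and in 2, Btg2 and Egr1, every GW4064 array lay below (6.19%). The median log2 change of the 10 genes was -0.06, and that of all genes was -0.02. The median of the 10 moved with single arrays, to -0.20 without GW4064 replicate 3, -0.14 without DMSO replicate 2, -0.01 without DMSO replicate 1, -0.04 without DMSO replicate 3 and 0.0047 without GW4064 replicate 2.

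**Figure D1:**
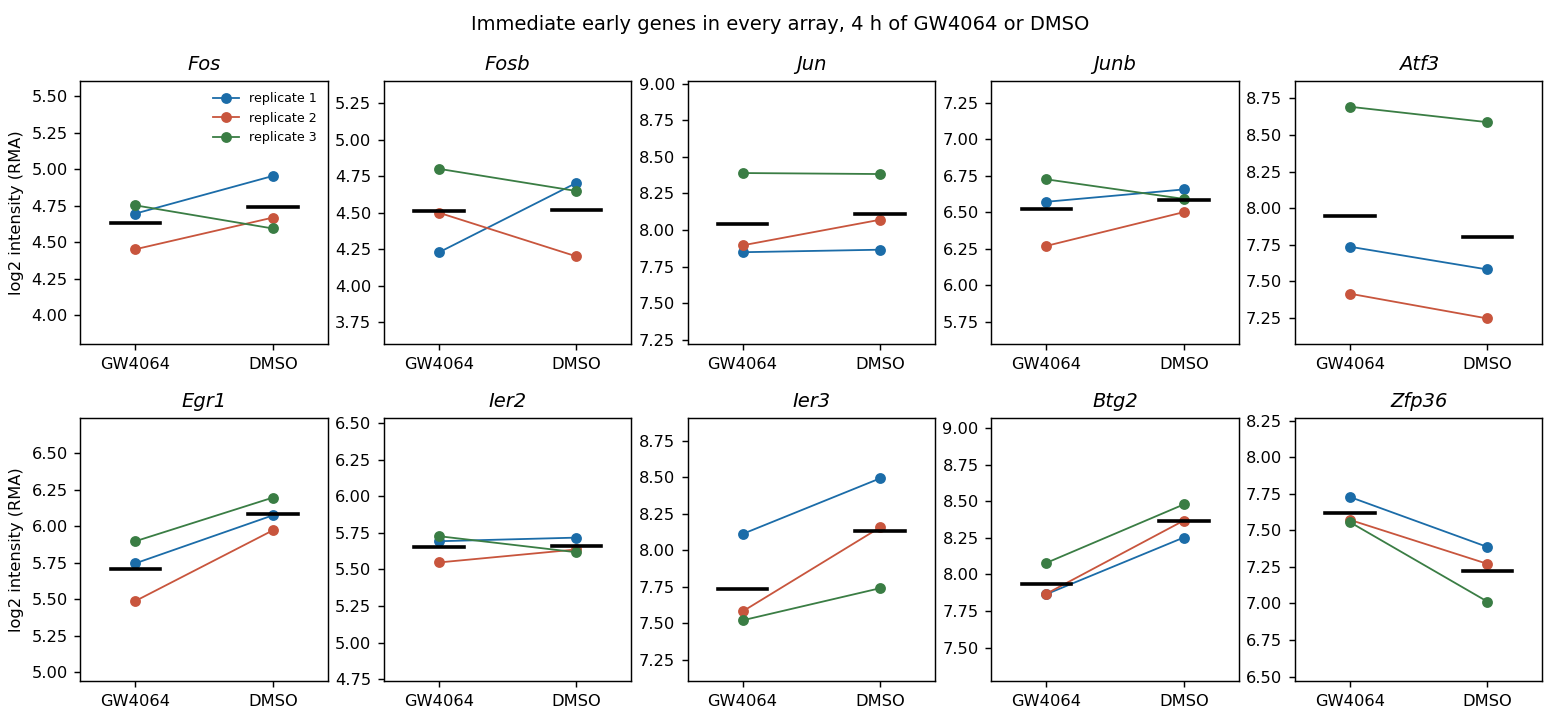
Log2 RMA intensity of the 10 immediate early genes (1 panel each, every vertical axis spanning 1.8 log2 units) in the arrays with GW4064 (left) and DMSO (right). Points are arrays, lines join arrays of the same replicate number, and black bars are group means. Btg2, Egr1 and Ier3 slope one way and Zfp36 the other in all 3 pairs, while Atf3 is set apart by replicate 3.

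Btg2, an antiproliferative gene whose protein binds the CAF1 deadenylase, stood at 7.86, 7.87 and 8.08 with GW4064, against 8.25, 8.37 and 8.48 with DMSO. Each GW4064 array was below each DMSO array. The change was -0.43 (SE 0.11), a 0.743-fold level with a 95% interval of 0.629 to 0.877. Its adjusted p of 0.569 was the lowest of the 10 genes (unadjusted p = 0.00290, limma), and with the block it was 0.235. Over the 17 alternative settings its change ranged from -0.50 to -0.37.

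Zfp36 encodes tristetraprolin, which binds AU-rich elements and brings the CCR4-NOT deadenylase to short-lived transcripts. Its levels with GW4064 were 7.73, 7.57 and 7.56, against 7.39, 7.27 and 7.01 with DMSO. The groups did not overlap, and the pair differences of 0.34, 0.30 and 0.54 were all positive. The change was 0.40 (SE 0.12), or 1.32-fold with an interval of 1.09 to 1.58 (limma adjusted p = 0.723, and 0.291 with the block).

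Egr1, a zinc finger factor induced by ERK signalling, was at 5.75, 5.49 and 5.90 with GW4064, against 6.07, 5.97 and 6.20 with DMSO. The highest GW4064 array was still below the lowest DMSO array. The change of -0.37 (SE 0.12) corresponds to a 0.774-fold level, with an interval of 0.637 to 0.940 (limma adjusted p = 0.789, and 0.301 with the block).

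Ier3, an early response gene that modulates apoptosis and is induced by NF-kB, had 8.11, 7.58 and 7.52 with GW4064, against 8.49, 8.16 and 7.74 with DMSO. The groups overlapped, because replicate 1 was high and replicate 3 low under both conditions. Within the pairs GW4064 was lower by differences of -0.38, -0.57 and -0.22. The change was -0.39 with an SE of 0.21 without the block and 0.10 with it, and the limma adjusted p was 0.935 and 0.340. Single arrays moved this value: it was -0.21 without DMSO replicate 1, -0.59 without DMSO replicate 3 and -0.58 without GW4064 replicate 1.

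Promoter windows of RefSeq were used for 8 of the 10 genes, all but Egr1 and Ier2, on build GRCm38.p6. They reach from 250 bases before to 50 after the annotated start. Those of Btg2, Zfp36 and Ier3, described above, are shown. The pair differences of each had 1 sign, as did those of Atf3, whose window is not shown. The window of Fos is shown beside them as the classical immediate early promoter. Each is written 5′ to 3′ on the gene's strand. Capitals mark matches to a CRE (TGACGTCA) or its shorter core (TGACG), an AP-1 site (TGANTCA), an EGR site (GCGNGGGCG), a TATA box (TATAAA), a CArG box or an NF-kB site, on either strand, and the core also lies inside each CRE.
Btg2, chr1:134079106-134079405, minus strand: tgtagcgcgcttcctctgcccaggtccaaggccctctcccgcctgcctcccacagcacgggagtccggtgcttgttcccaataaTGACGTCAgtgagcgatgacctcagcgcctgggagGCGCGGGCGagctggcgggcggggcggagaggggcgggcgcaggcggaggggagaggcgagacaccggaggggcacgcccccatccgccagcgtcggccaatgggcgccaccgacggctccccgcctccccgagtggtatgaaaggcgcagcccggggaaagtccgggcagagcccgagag
Zfp36, chr7:28379179-28379478, minus strand: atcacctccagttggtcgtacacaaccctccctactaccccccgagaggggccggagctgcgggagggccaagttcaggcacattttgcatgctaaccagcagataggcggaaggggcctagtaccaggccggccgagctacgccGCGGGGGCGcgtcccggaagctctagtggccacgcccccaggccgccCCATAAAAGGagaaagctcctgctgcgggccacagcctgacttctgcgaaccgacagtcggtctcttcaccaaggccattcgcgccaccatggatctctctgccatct
Ier3, chr17:35821463-35821762, plus strand: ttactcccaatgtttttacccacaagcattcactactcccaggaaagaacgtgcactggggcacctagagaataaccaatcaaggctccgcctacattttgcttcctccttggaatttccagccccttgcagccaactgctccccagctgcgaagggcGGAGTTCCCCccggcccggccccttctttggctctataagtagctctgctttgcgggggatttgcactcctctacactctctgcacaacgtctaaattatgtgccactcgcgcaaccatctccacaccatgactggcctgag
Fos, chr12:85473640-85473939, plus strand: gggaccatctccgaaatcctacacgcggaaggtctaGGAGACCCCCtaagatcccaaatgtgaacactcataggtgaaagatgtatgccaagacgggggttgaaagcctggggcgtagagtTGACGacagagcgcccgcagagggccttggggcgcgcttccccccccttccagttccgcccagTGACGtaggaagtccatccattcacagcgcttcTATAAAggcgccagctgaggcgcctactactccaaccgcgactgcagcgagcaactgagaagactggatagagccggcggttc

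Counting the annotated start as position 1 and the base before it as -1, Btg2 held a full CRE at positions -166 to -159, and no other of the 8 windows had this motif, which 1.79% of 32851 windows of this length hold. The CRE core was in 5 of the 8 (Atf3, Btg2, Fos, Fosb and Junb) and in 20.8% of all windows. In Fos a CRE core lay at -66 to -62 and a TATA box at -33 to -28. Zfp36 carried a CArG box, the element bound by serum response factor, at -58 to -49, a motif in 1.63% of all windows and in none of the other 7. An EGR site was in Btg2, Fosb and Zfp36 and in 5.55% of all windows. The NF-kB motif was in Fos, Fosb and Ier3 and in 4.51% of all windows. The single hexamer AGGTCA, unmarked above, was in Btg2 at -150 to -145 on the opposite strand and in 16.3% of all windows. The TATAAA motif was in Fos and Junb and in 13.6% of all windows. In Junb it lay at positions 1 to 6, on the annotated start. The AP-1 motif (7.81% of all windows) and an E-box (CACGTG, 7.15%) were in none of the 8 windows. An inverted repeat of AGGTCA spaced by 1 base, the binding motif of FXR (0.00913%), was in none either. Only 3 of 32851 windows hold this repeat, so its absence from 8 carries no information. Variants of the AP-1 motif and of the repeat with other letters were not searched. The windows of the 8 genes had a GC content of 54.0% to 72.0%, where the median over all windows was 52.7%. These matches describe letters in short windows and not binding. Elements outside the windows, in Fos or any other gene, were not searched, so a motif missing here may lie further away.

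Fos and Fosb encode the FOS subunits of AP-1, which bind DNA as dimers with a JUN protein. Fos lay at 4.70, 4.45 and 4.75 with GW4064, against 4.95, 4.67 and 4.59 with DMSO. Pairs 1 and 2 were lower and pair 3 was higher, and the groups overlapped. Its 95% interval ran from 0.761-fold to 1.14-fold. Fosb had 4.23, 4.50 and 4.80 with GW4064, against 4.70, 4.20 and 4.65 with DMSO. Its pair differences of -0.48, 0.30 and 0.15 point both ways, and its interval was 0.756-fold to 1.31-fold.

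Jun and Junb encode the JUN subunits, of which JUNB is the weaker activator. Jun stood at 7.85, 7.90 and 8.39 with GW4064, against 7.87, 8.07 and 8.38 with DMSO. Replicate 3 was high in both groups, and the pair differences stayed between -0.18 and 0.01. With the block the interval of its change was 0.834-fold to 1.10-fold. Junb was at 6.57, 6.27 and 6.72 with GW4064, against 6.66, 6.50 and 6.59 with DMSO, with an interval of 0.786-fold to 1.17-fold.

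Ier2, a small nuclear protein gene of the early response, had the smallest SE of the 10 (0.09), at 5.69, 5.55 and 5.73 with GW4064, against 5.72, 5.64 and 5.62 with DMSO. Its fold was 0.999 with an interval of 0.862 to 1.16. The limma adjusted p of Fos, Fosb, Jun, Junb and Ier2 was at least 0.998 without the block and between 0.817 and 0.998 with it. In 9 of the 10 genes the interval without the block stayed within a 2-fold change either way, the exception being Atf3 with an upper bound of 2.01-fold, and with the block all 10 did. The intervals of Btg2, Egr1 and Zfp36 leave out a fold of 1, and those of the other 7 genes include it without the block.

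**Figure D2:**
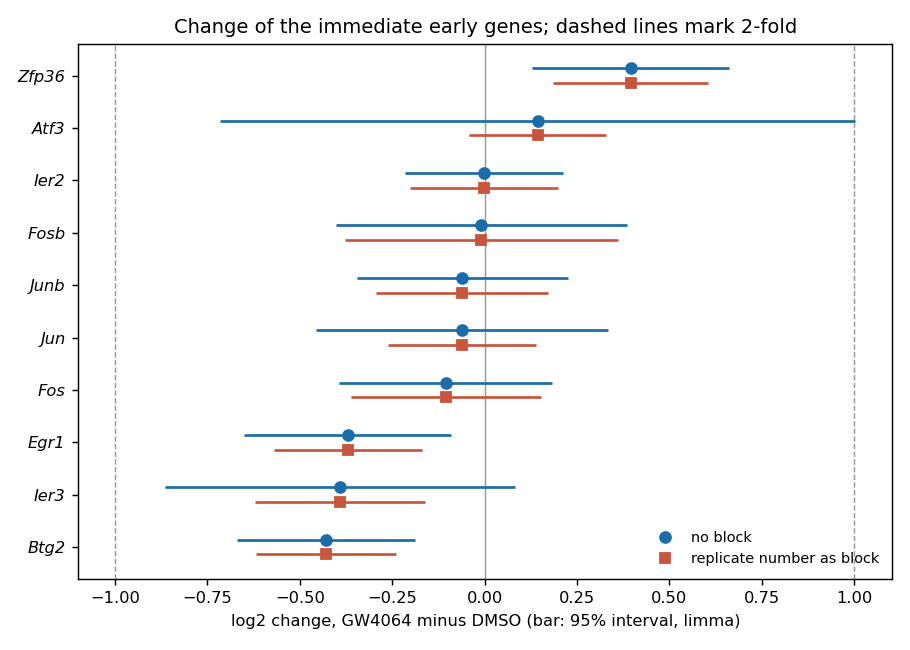
Log2 change of each immediate early gene, GW4064 minus DMSO, with its 95% interval from limma without a block (blue circles) and with the replicate number as a block (red squares). The intervals of Btg2, Egr1 and Zfp36 lie on 1 side of zero in both fits and that of Ier3 with the block alone, while none of the 10 passed an adjusted p of 0.05. The block narrowed the interval of Atf3 most.

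Atf3, a bZIP factor of the ATF and CREB family that many stresses induce, differed far more between replicate numbers than between treatments. It had 7.74, 7.41 and 8.69 with GW4064, against 7.58, 7.25 and 8.59 with DMSO. Replicate 3 was highest and replicate 2 lowest under both conditions. The mean of replicate 3 was 8.64, and those of replicates 1 and 2 were 7.66 and 7.33, a span of 2.48-fold. The replicate number took 98.3% of the sum of squares of Atf3 over the 6 arrays, the treatment 1.63% and the remainder 0.0598%. In limma's F-test of the replicate number Atf3 was the 1 gene of the 10 past the threshold (adjusted p = 0.0122 over all genes), where 1.07% of all genes passed. The adjusted p was 0.116 without DMSO replicate 3, 0.0880 without GW4064 replicate 3, 0.0501 without GW4064 replicate 2 and 0.214 with all probe sets tested. The pair differences of Atf3, GW4064 minus DMSO, were 0.16, 0.17 and 0.11. Its blocked interval of 0.971-fold to 1.26-fold included a fold of 1 (limma adjusted p = 0.635 with the block and 0.998 without it).

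At an unadjusted p under 0.05 the same F-test picked out 3 of the 10 genes, Atf3, Jun and Ier3, against 14.8% of all genes. Jun and Ier3 had adjusted p of 0.139 and 0.119. Jun was highest in replicate 3, with replicate means of 7.86, 7.98 and 8.39, whereas Ier3 was lowest there, with 8.30, 7.87 and 7.63. The spread of the replicate means had a median of 0.29 log2 units over the 10 genes and 0.19 over all genes. The replicate number took a median of 53.6% of the sum of squares of the 10 genes and 46.7% of that of all genes, and the treatment 8.15% and 11.8%. Treatment held the largest share in 3 of the 10, with 83.2% in Btg2, 72.0% in Zfp36 and 65.0% in Egr1. The share of all genes for which this holds was not computed. These are the same 3 genes that had an unadjusted limma p under 0.05 for GW4064 without the block, so this is no separate observation.

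**Figure D3:**
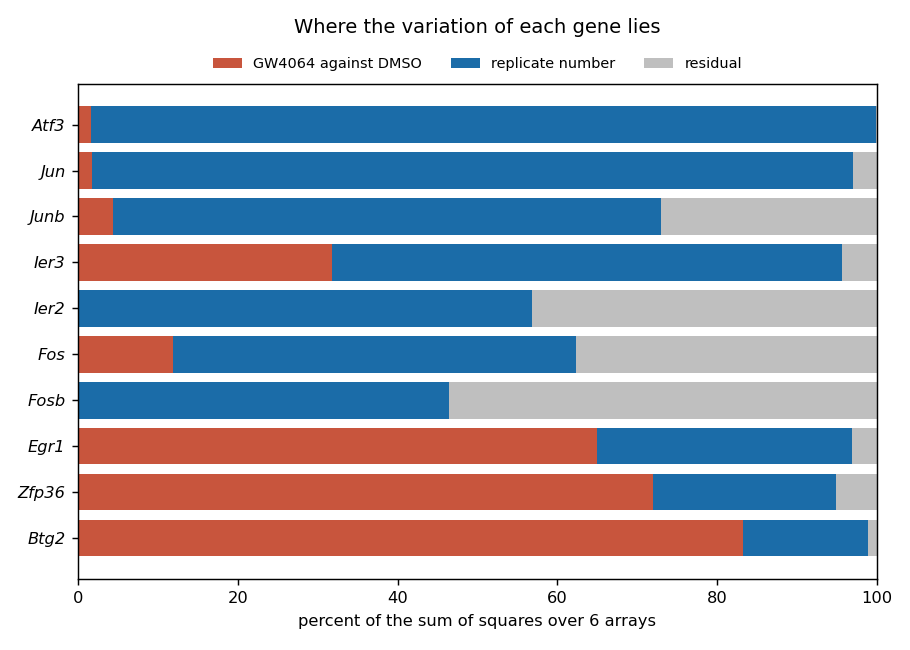
Share of each gene's sum of squares over the 6 arrays that lies between GW4064 and DMSO (red, 1 degree of freedom), between replicate numbers (blue, 2) and in the remainder (grey, 2). The bars of Atf3 and Jun are almost wholly blue, with 98.3% and 95.2%, and those of Btg2, Zfp36 and Egr1 mostly red.

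A few genes of the stress and cell type lists also passed the F-test of the replicate number, which 1.07% of all genes passed. Of the 145 further genes in the related lists described below, 3 passed (2.07%). Of these, 2 were integrated stress response genes and 1 was in the list of transcripts reported as bound by tristetraprolin. Among 12 integrated stress response genes, 2 passed the F-test, Ddit3, the proapoptotic factor CHOP (adjusted p = 0.0463), and Ppp1r15a, the phosphatase subunit GADD34 (adjusted p = 0.0253). Both were highest in replicate 3, with replicate means of 5.61, 5.46 and 6.83 for Ddit3 and 5.59, 5.48 and 6.49 for Ppp1r15a. Of 9 macrophage markers 1 passed, Cd68 (adjusted p = 0.0141), with 9.75, 8.50 and 9.98, while the mean level of the 9 was 3.94, 3.93 and 4.10 in replicates 1, 2 and 3. Of 11 hepatocyte markers 1 passed, the glucocorticoid-induced tyrosine aminotransferase gene Tat, with 10.16, 10.27 and 11.07 (adjusted p = 0.0288), and the mean level of the 11 was 10.38, 10.39 and 10.36. Endothelial markers averaged 4.59, 4.94 and 4.55 over 7 genes, and none of the 7 endothelial, 9 stellate cell, 5 cholangiocyte and 5 leukocyte markers passed. The macrophage-restricted genes Adgre1 and Clec4f were at 2.92 and 3.66 with GW4064 and at 2.99 and 3.90 with DMSO. In bulk RNA fewer cells of a type and less RNA per cell cannot be told apart, and the part of these differences in the Atf3 pattern was not tested.

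The genes most like each member over the 6 arrays were named by Pearson's r, a description in which same-numbered arrays and treatment groups are shared. Atf3 ran with Hsph1, a chaperone of the HSP110 family (r = 0.995), and with Otx2os1 (r = 0.996). Hsph1 was at 7.73, 7.52 and 8.39 with GW4064, against 7.73, 7.49 and 8.32 with DMSO. Its high replicate 3 follows from its choice by likeness to Atf3 and is no separate observation. Jun was closest to Wdr74, a ribosome biogenesis gene (r = 0.995), and to Cmss1 (r = 0.991). Btg2 ran with Gp5 (r = 0.994) and Cobll1 (r = 0.993), Egr1 with the histone acetyltransferase gene Kat6a (r = 0.996) and Slc25a44 (r = 0.991), and Zfp36 with the acyltransferase gene Agpat2 (r = 0.988) and Paf1 (r = 0.985). The closest to Ier3 were Ttc7 and Lrch1 (r = 0.997 and 0.996). For Fos they were Snhg14 and Vash2 (r = 0.994 each), for Fosb Sybu and Siah1a (r = 0.991 and 0.988), for Junb Spryd7 and Piga (r = 0.993 and 0.989), and for Ier2 C1qtnf9 and Dhx36 (r = 0.993 and 0.990). With 6 arrays and 22180 genes, high values of r are to be found for any gene.

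Relatives and regulators of the 10 genes were gathered in 10 lists, which hold 145 further measured genes. None of the 145 changed at a limma adjusted p under 0.05, with or without the block. At an unadjusted p under 0.05, 8 were higher and 5 lower without the block (5.52% and 3.45%, against 2.60% and 3.06% of all genes). With the block 10 were higher and 16 lower (6.90% and 11.0%, against 4.01% and 5.12% of all genes). Their median log2 change was -0.04, against -0.02 for all genes. Counts of higher and lower genes in the lists below are by mean alone. The share of all genes with a lower mean was not computed beside them. Groups without overlap are mentioned below for genes named because of their small p, which favours such genes. Among all genes 4.58% were higher and 6.19% lower without overlap, and the count over the 145 was not computed.

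Of the other AP-1 and related bZIP genes, 10 were measured, with 2 higher, 8 lower and a median log2 change of -0.04. The smallest p belonged to Atf7, at -0.18 (SE 0.10), and Atf2, at -0.14 (SE 0.11). All 5 of the other EGR genes and NAB corepressors had lower means with GW4064 (median -0.11). Only Nab1 was lower in all 3 pairs, while Egr2, Egr3, Egr4 and Nab2 had mixed signs over the pairs. Nab1, whose product represses through EGR proteins, had 8.17, 8.09 and 8.12 with GW4064, against 8.48, 8.32 and 8.27 with DMSO, and Nab2 had a change of -0.10 (SE 0.09). The 3 Nab1 arrays with GW4064 lay below the 3 with DMSO, at a limma adjusted p of 0.863. The ZFP36, BTG, TOB and IER relatives were split, with 5 of 9 higher, Tob1 at 0.17 (SE 0.10) and Zfp36l2 at -0.21 (SE 0.14). Subunits of the CCR4-NOT deadenylase, the enzyme that BTG2 and tristetraprolin recruit, were lower in 7 of 9 with a median of -0.04, and Cnot8, at -0.10 (SE 0.13), and Cnot6l, at -0.07 (SE 0.09), had the smallest p.

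Other early response genes numbered 37, with 18 higher, 19 lower and a median of -0.02. Sik1, a salt-inducible kinase that CREB induces and that feeds back on the CREB coactivators, had 8.33, 8.16 and 8.02 with GW4064, against 7.63, 7.51 and 7.35 with DMSO. Its groups did not overlap and its pair differences were 0.69, 0.65 and 0.67, but its adjusted p was 0.176 without the block and 0.0696 with it (limma). Nr4a2, an orphan nuclear receptor gene, had a change of 0.54 (SE 0.17). The MAPK phosphatases and Sprouty genes, which damp ERK and stress kinases, were higher in 9 of 17 (median 0.04), with Dusp9 at 0.28 (SE 0.09) and Spry1 at 0.21 (SE 0.09). Among 23 MAP kinases and SRF, TCF and CREB factors 8 were higher (median -0.02), and the ternary complex factor Elk3, at -0.38 (SE 0.12), and the SRF coactivator Mrtfb, at 0.30 (SE 0.09), differed in sign.

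Transcripts reported as bound by tristetraprolin were lower in 10 of 14 (median -0.08), a list that includes Ier3 and Fos. The median level of the 14 was 3.79 with GW4064 and 3.75 with DMSO. The array medians over all probe sets ran from 3.74 to 3.79, so many of these transcripts had low levels. The chemokine gene Cxcl1 had 5.78, 6.04 and 5.59 with GW4064, against 6.39, 6.41 and 5.99 with DMSO, a change of -0.46 (SE 0.15), and Ptgs2 had -0.35 (SE 0.16). At an unadjusted p under 0.05, 1 of the 14 was lower without the block, where 3.06% of all genes were, and 5, Ier3 among them, were lower with it, where 5.12% of all genes were. None of the 14 passed the adjusted threshold. Other target genes of p53, which also induces Btg2, were lower in 11 of 15 (median -0.12). Bbc3, the proapoptotic gene PUMA, was at 4.22, 4.10 and 4.24 with GW4064, against 4.55, 4.57 and 4.92 with DMSO, a change of -0.49 (SE 0.12) without overlap between the groups and with a limma adjusted p of 0.539. Trp53inp1 had -0.33 (SE 0.17). The integrated stress response genes were lower in 10 of 12 (median -0.06), with Atf5 at -0.13 (SE 0.10) and Chac1 at -0.14 (SE 0.11).

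**Figure D4:**
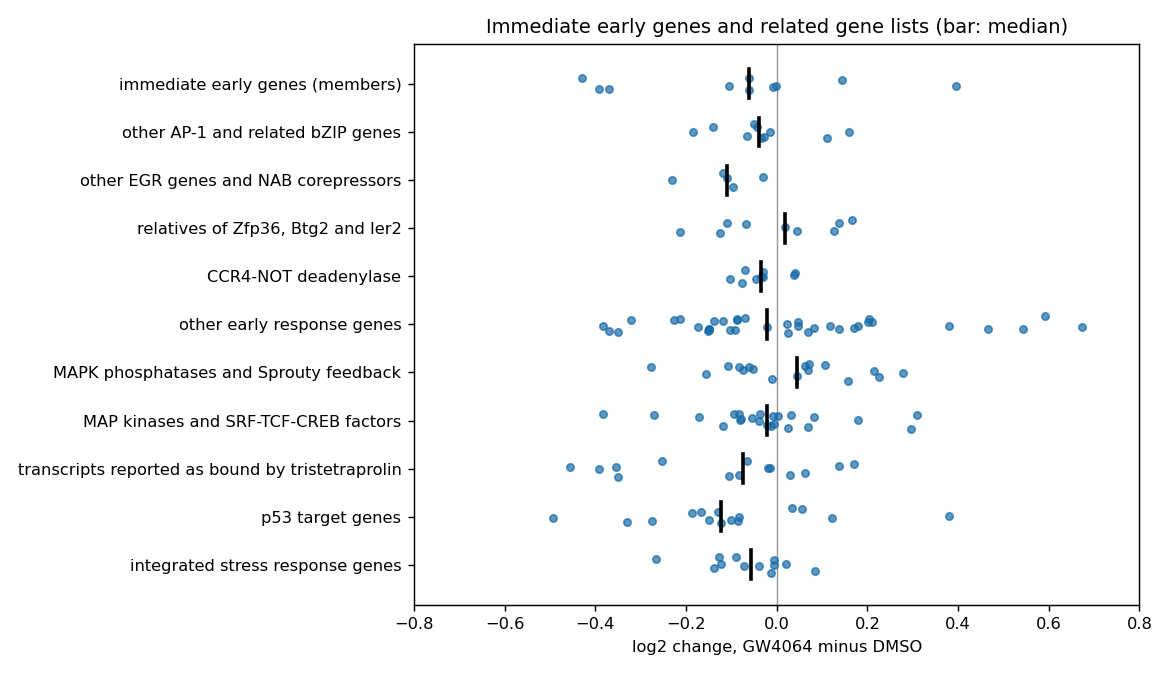
Log2 change, GW4064 minus DMSO, of every measured gene in the immediate early list and in 10 related lists (points, with a vertical jitter that carries no value). Black bars are list medians, which lie between -0.12 and 0.04. No point passed a limma adjusted p of 0.05, and Sik1, at 0.67, is the rightmost.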

How the data were processed

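MoGene-2_0-st arrays of Affymetrix, with 1 colour, measured RNA of 6 samples. The titles gave the groups and replicate numbers. The authors deposited log2 values per probe set, made with RMA. The submitters' processing notes name Partek too and give no version, and the log base follows from the range of the values. RMA scales the arrays to 1 distribution, so a shift shared by all genes cannot be seen.

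Of 41345 probe sets, 23521 carry 1 gene symbol, 1814 several and 16010 none in the platform annotation. The probe set with the highest mean was kept per gene, which gave 22180 genes. GW4064 minus DMSO was fitted with limma 3.58.1 (lmFit, eBayes) in R 4.3.3 on all 6 arrays, with Benjamini-Hochberg adjustment over all genes, with no filter, first without and then with the replicate number as a block. Intervals, SE and folds (2 to the power of the change) are from the fit without the block unless stated. An F-test of the replicate terms came from the blocked fit. An exact two-sided permutation test with 3 arrays a group reaches 0.1 at the lowest and was not used. The fits were tested on simulated data.

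Deviations of same-numbered arrays from their group means correlated at 0.26 to 0.45, above the 0.1 asked for in every pair, so the numbers were taken as pairs. The fit without the block leaves this pairing unused. Its SE was 0.38 for Atf3 and 0.21 for Ier3, against 0.08 and 0.10 with the block. The labels do not tie a number to a preparation or say that samples came from separate animals, so p-values measure the spread between these samples, which may be technical.

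Members and gene lists were chosen with earlier results of these data known. Of 222 listed symbols beside the 10, 201 were matched. FXR targets were named as controls. Named from each other list were the genes past the threshold with or without the block and the 2 with the smallest p, and as likest genes the 2 with the highest r, without predicted and small-RNA genes. Fos, Ddit3, Ppp1r15a, Cd68, Tat, Adgre1, Clec4f and Alb stand beside results by choice after their values were seen. Promoter windows are from RefSeq (GRCm38.p6) for 8 of the 10 genes; those of Egr1 and Ier2 were not used here. 10 motifs were searched on both strands. The build behind the array annotation is not given in the sources used here. Alternatives are given in the closing section.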

Additional observations from a re-analysis of the deposited data

How the results depend on the processing

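In all 17 alternatives to the GW4064 comparison 0 of the 10 genes passed an adjusted p of 0.05, the replicate block included, against 3 at an unadjusted p under 0.05 without the block. Btg2, Egr1, Ier3 and Zfp36 kept their sign in all 17. The count over all genes, 11, became 18 with the replicate block, 17 with trend and robust moderation, 2 with all probe sets and 2 to 5 with arrays or pairs left out. All probe sets are 41345 features and left-out settings have fewer arrays, and for the others the cause was not tested. The replicate F-test, with 1 of the 10 genes, called 3 without genes under the median level and 3 with trend and robust moderation (Atf3, Jun and Ier3 in both). It called 0 with all probe sets, and 0 to 1 with arrays left out, settings chosen after seeing the data. Over all genes it called 238 in the main fit, 669 of those kept at or above the median level and 1856 with trend and robust moderation. With all probe sets it called 0 of all genes, and with arrays left out 8 to 264. The counts among the 10 thus moved with those over all genes.

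Signs of the small changes turned. With quantile normalization Fosb had a change of 0.0037 and Ier2 0.012, and with arrays centred on their medians 0.0068 and 0.014. With arrays or pairs left out the log2 change ran from -0.24 to 0.0022 for Fos, -0.17 to 0.23 for Fosb, -0.23 to 0.077 for Jun, -0.16 to 0.066 for Junb, -0.057 to 0.053 for Ier2 and -0.23 to 0.54 for Atf3. None of the 10 genes has a second probe set with 1 symbol, so the choice among probe sets had no alternative for them. The table gives no background signal, so how low levels limit the values could not be checked.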
